A study of Mus musculus with 24 samples.

Results

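Livers of furan-treated mice were compared between pieces that stood in formalin for 3 weeks before paraffin embedding and pieces frozen fresh. All 4 libraries of formalin-fixed, paraffin-embedded (FFPE) pieces labelled furan and 3 wk were used (animals 41, 42, 43 and 44), with the 3 frozen furan libraries whose columns match a label (animals 41, 43 and 44). These are 7 of the 22 libraries of the deposited count table that could be matched to a labelled sample. An equal number in the labels means a piece of the same liver, and animal 42 has no frozen partner here. The mice were female B6C3F1, bought at an age of 5 to 6 weeks and acclimatised for 7 days. The furan animals received 8 mg per kg body weight in corn oil by oral gavage for 21 days, and the control animals received corn oil only. The animals were killed 4 h after dosing ended, and each liver was divided into 3 pieces. One piece was frozen, one stood in formalin for 18 h and one for 3 weeks. Libraries were made by poly(A) selection, without a mark of strand, and sequenced on a HiSeq 2000. Fixed and frozen pieces differed in more than fixation. Frozen tissue (about 100 mg) was extracted with one column kit, and 2 sections of 10 micrometres per 3-week piece with another kit made for FFPE material. Per the labels, the RNA integrity number exceeded 8.9 in frozen pieces and lay between 1.3 and 2.4 in FFPE pieces. The effects of fixation, extraction kit and amount of tissue cannot be told apart, and no treatment differed between the groups compared.

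Formalin adds methylol groups to the bases of RNA and links RNA to protein, and RNA in fixed tissue is cut into short pieces. Poly(A) selection holds a messenger RNA by the tail at its 3′ end, so a cut molecule gives only the piece that is still joined to the tail. Messenger RNAs of hepatocytes range from short ones, such as those of apolipoproteins C and respiratory chain accessory subunits, to very long ones, such as those of complement proteins and apolipoprotein B. Several abundant cell RNAs carry no lasting poly(A) tail: the ribosomal RNA precursor, the RNA components of RNase P and RNase MRP, vault RNA, small nucleolar RNAs (snoRNAs) and the messengers of replication-dependent histones, which end in a stem-loop.

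The sequences below belong to guide RNAs and histone messengers, of kinds that are made without a poly(A) tail. Snord17 and Snord15b are C/D guide RNAs, which direct methylation of ribosomal RNA. They are released from introns of host genes. Both are printed whole, with matches to TGATGA (the core of the C box) and CTGA (the D box) in capitals. Only the strand of the transcript was searched, the pair of motifs can overlap, and a match need not be a working box. Among Snord genes of the count table with a transcript, 47 of 69 (68.1%) held both motifs, against 0 of 36 Snora genes, which belong to the other guide RNA class. Replication-dependent histone messengers are shown at their stem-loop, with the 16 bases of the stem-loop motif in capitals and 6 bases on each side. This motif was found in 44 of 68 histone cluster genes (64.7%) and in 2 of 12119 other tested protein-coding genes (0.017%), on the transcript strand. All sequences are GENCODE M21 transcripts (GRCm38) matched by gene symbol. The guide RNAs lie on chromosomes 2 and 7, and the 3 histone genes on chromosome 13.
Snord17: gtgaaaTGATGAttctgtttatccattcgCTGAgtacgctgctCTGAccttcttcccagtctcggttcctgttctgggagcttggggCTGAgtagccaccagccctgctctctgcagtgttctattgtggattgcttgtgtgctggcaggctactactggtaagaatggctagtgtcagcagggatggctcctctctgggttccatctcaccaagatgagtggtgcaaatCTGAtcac
Snord15b: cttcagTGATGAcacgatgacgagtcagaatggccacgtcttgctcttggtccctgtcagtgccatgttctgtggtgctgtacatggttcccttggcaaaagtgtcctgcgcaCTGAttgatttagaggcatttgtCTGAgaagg
Hist1h4d: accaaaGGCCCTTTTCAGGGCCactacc
Hist1h1c: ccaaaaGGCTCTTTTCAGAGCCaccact
Hist1h1e: cccaaaGGCTCTTTTCAGAGCCacccac

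The fixed libraries held 3895208 to 11780691 counts and the frozen ones 33101755 to 58048387, so single values of low genes are less precise in the fixed pieces. At least 1 count was seen for 13576 ± 573 genes in fixed pieces (SD, n = 4) and for 16529 ± 171 in the more deeply counted frozen pieces (SD, n = 3). Genes of at least 1 CPM ran the other way, with 12290.5 ± 225 in fixed (SD, n = 4) and 11864 ± 113 in frozen pieces (SD, n = 3). Replicate animals differed more after fixation: the coefficient of variation common to all genes was 38.0% in fixed and 10.3% in frozen furan livers, and 14.2% in livers fixed for 18 h. Fixed library 42 stood apart by skeletal muscle transcripts, which summed to 1386 CPM over 13 markers, against 3.67, 8.47 and 6.71 CPM in fixed libraries 41, 43 and 44 and 1.31 to 1.66 CPM in frozen ones. Several lists and the muscle genes are given with and without it. Alb, a defining marker of hepatocytes, took 6.41 to 7.17% of counts in the fixed pieces and 12 to 12.5% in the frozen ones.

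Of 24015 genes in the table, 12599 passed the filter on low counts. Of these, 5703 differed between fixed and frozen furan livers (edgeR's quasi-likelihood test, Benjamini-Hochberg adjusted p under 0.05), which is 45.3% of all tested genes. Counts were higher after fixation for 2819 genes (22.4%) and lower for 2884 (22.9%), and 3079 of the called genes differed by at least 2-fold, 1792 of them higher and 1287 lower. In 6562 genes (52.1%) the fixed and frozen libraries did not overlap. The median log2 difference over all tested genes was 0.01, with quartiles of -0.59 and 0.72. Scaling by the upper quartile in place of TMM moved this median to 0.13 and the share of called genes that were higher from 49.4% to 57.2%. Among called genes, 5637 (98.8%) had the same sign in each of the 3 livers that gave both pieces, against 41.6% of genes not called. The calls were made on these same libraries and favour genes of 1 sign, so these shares describe the calls and are no separate evidence. A test against a difference of 1.5-fold called 2977 genes, and by it Cyp2e1, Sdha, Rplp0 and Xist, named below, were not called. Every sum of counts, share and level below is relative to the other RNA of its library. A gene near 0 in 1 group could pass the filter through the other group alone, which largely sets its direction in advance.

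**Figure D1:**
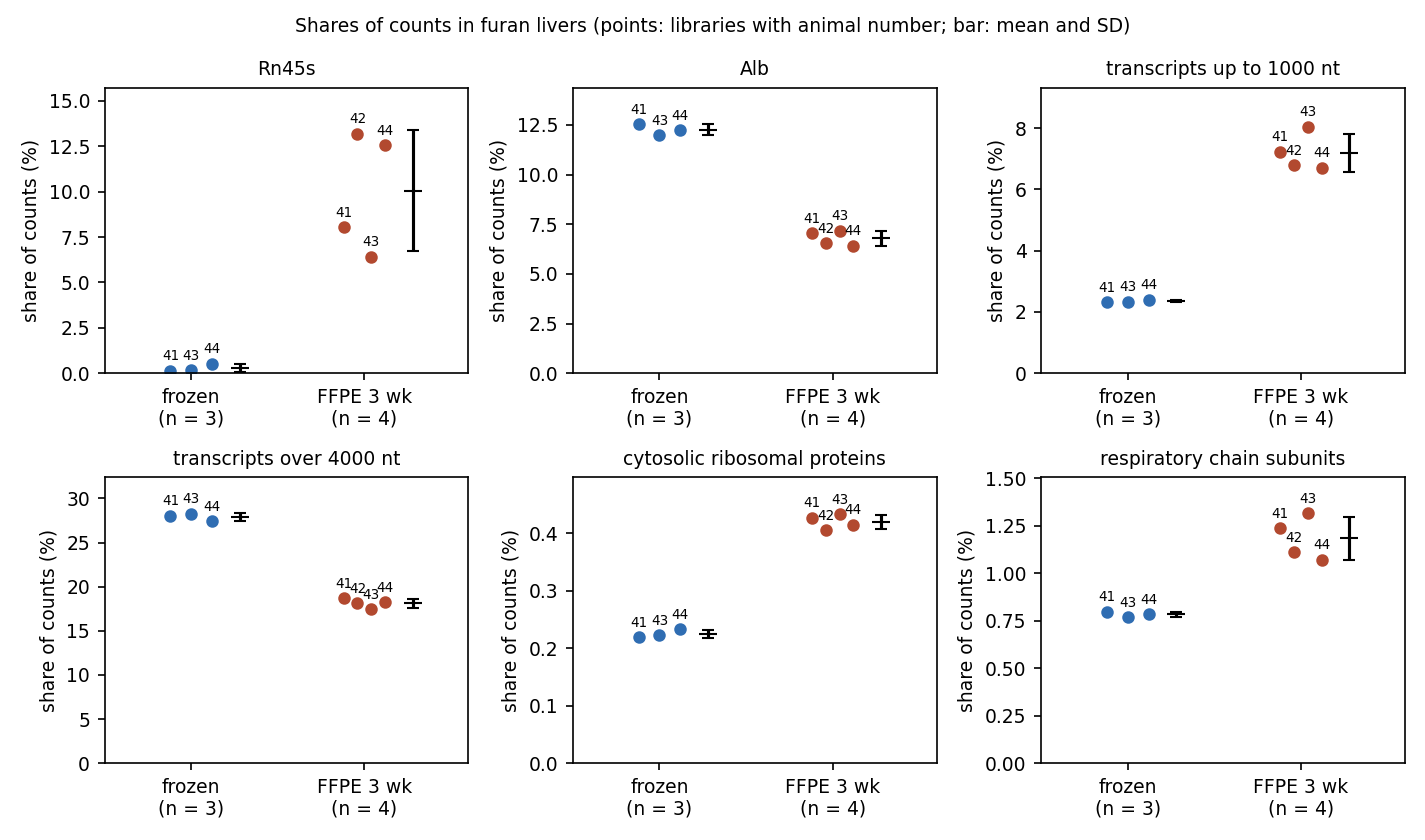
Share of all counts, in percent, per library for 6 classes of RNA, with frozen furan pieces beside pieces fixed for 3 weeks. Points are animals, and bars give the mean and SD. The Rn45s share lies at 6.42 to 13.2% in the fixed pieces and below 1% in all frozen pieces, while the share of genes with transcripts over 4000 nt is lower in every fixed piece.

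RNAs that carry no poly(A) tail made up more of each fixed library than of any frozen one. Rn45s is the gene of the 45S precursor from which 18S, 5.8S and 28S ribosomal RNA are cut. It took 8.05, 13.2, 6.42 and 12.6% of counts in fixed pieces 41, 42, 43 and 44. In frozen pieces 41, 43 and 44 it took 0.129, 0.155 and 0.520%. Counts per gene cannot tell the precursor from the mature ribosomal RNAs cut from it, so these shares may hold reads of both. The groups did not overlap (exact two-sided permutation test, p = 0.0571, the smallest that 4 against 3 libraries can give). The fitted log2 difference of Rn45s was 5.19 ± 0.53, adjusted p = 1.71e-05. From here on, values of single libraries follow the order 41, 42, 43, 44 for fixed and 41, 43, 44 for frozen pieces, in CPM, the count of a gene relative to the TMM-scaled total of its library. Differences are fitted log2 values of fixed minus frozen pieces, ± an approximate SE.

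Of 14 RNAs in the count table from the list without a poly(A) tail, 7 were tested. All 7 were higher in fixed pieces, with a median log2 difference of 8.86. It was 7.24 with those at 0 in frozen pieces set to their lower bound. The members named below were near 0 CPM in frozen pieces and passed the filter on low counts through the fixed pieces. Their direction was thereby largely set in advance, so the count of 7 is a description and no separate evidence. Rmrp, the RNA of RNase MRP, which cuts the ribosomal RNA precursor, stood at 23.2, 34.7, 23.2 and 61.5 CPM fixed and 0.163, 0.224 and 0.606 CPM frozen. All fixed libraries lay far above all frozen ones (6.84 ± 0.55, adjusted p = 3.19e-06). Rpph1, the RNA of RNase P, which trims transfer RNA, stood at 37.8, 91.1, 39.1 and 78.4 CPM fixed and 0.0363, 0.0995 and 0.303 CPM frozen (8.86 ± 0.58, adjusted p = 8.09e-07). Rpph1 overlaps another gene in 73.0% of its length and Rmrp in 44.1%, so part of these reads may belong to their neighbours. Vaultrc5, the vault RNA, had 7.35, 10.9, 4.03 and 16.3 CPM fixed and 0.0181, 0.0249 and 0 CPM frozen. Its frozen level rests on 2 counts, and the ratio of summed shares was 706, with a 95% counting interval of 194 to 5852. Rprl3, a second copy of RNase P RNA, and Rnu12, the U12 RNA of the minor spliceosome, which shares 47.2% of its sequence with other transcripts, were at 0 in all frozen pieces. Rprl3 was at least 181-fold and Rnu12 at least 151-fold higher after fixation, against a floor of 3 counts over the frozen group.

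Guide RNAs that were tested were mostly higher in fixed pieces, as were the genes that host them. Of 114 snoRNAs and Cajal body RNAs in the count table, only 17 were tested. Of these, 12 were higher and 1 was lower, at a median log2 difference of 2.95, against 0.01 over all genes. Those near 0 CPM in frozen pieces passed the filter through the fixed pieces, which favours the higher side. Summed over all 114, tested or not, they stood at 62.2, 79.8, 71.1 and 108 CPM fixed and 25.4, 21.2 and 29.2 CPM frozen. Without fixed library 42, 25 were tested, 12 of them higher and 2 lower, at a median of 1.79. Snord17, printed above, stood at 3.89, 15.2, 1.51 and 18.3 CPM fixed and 0.0363, 0.0249 and 0.0303 CPM frozen. Its fixed values spread widely, yet the lowest exceeded every frozen value (8.09 ± 1.03, adjusted p = 8.95e-05). Snord104 stood at 7.56, 4.49, 4.03 and 8.85 CPM fixed and 0.780, 0.597 and 0.727 CPM frozen (3.16 ± 0.50, adjusted p = 0.000393), and Snora21 at 2.10, 2.99, 2.27 and 3.09 CPM fixed and 0.0363, 0.0498 and 0.0908 CPM frozen (5.4 ± 0.83, adjusted p = 0.000331). Snord15b and Snora74a lie wholly inside other annotated transcripts, so their log2 differences of 6.78 and 7.68 may hold reads of those. Of the 12 host genes, spliced long RNAs whose introns carry snoRNAs, 11 were higher and 0 lower, at a median of 3.21. Gas5 stood at 122, 118, 130.4 and 141 CPM fixed and 25.4, 18.6 and 24.5 CPM frozen (2.48 ± 0.15, adjusted p = 4.12e-07). Snhg8 stood at 57.6, 53.8, 50.2 and 65.1 CPM fixed and 6.71, 5.4 and 6.51 CPM frozen (3.19 ± 0.17, adjusted p = 2.43e-07). These spliced hosts carry poly(A) tails and are short: Gas5 measures 665 nt, Snhg8 528 nt and Snhg1 709 nt. The one host gene that did not pass, Snhg11, differed by 0.43.

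Histone messengers did not move as one group. Of 68 genes of the histone clusters in the count table, 7 were tested, 4 of them higher and 1 lower, at a median of 1.83. Without fixed library 42, 3 of 6 were higher and 1 lower, at a median of 1.05. The summed share of the list was 0.0122% ± 0.00111 in fixed (SD, n = 4) and 0.00506% ± 0.000385 in frozen pieces (SD, n = 3). In CPM, the list summed to 109, 126, 133 and 111 in fixed and 48.7, 52.5 and 53.8 in frozen pieces. A large part of this was Hist1h2bc, an H2B gene. It stood at 80.6, 80.7, 119 and 70.7 CPM fixed and 23.6, 25.6 and 24.5 CPM frozen (1.83 ± 0.18, adjusted p = 1.29e-05). The transcript matched to this gene holds no stem-loop, nor does that of Hist2h2be (2.47 ± 0.49, adjusted p = 0.00172). The summed share is therefore no measure of messengers with the stem-loop. Of the 3 called genes whose stem-loops are printed above, Hist1h4d was at 0.735, 3.26, 1.26 and 3.68 CPM fixed and 0.0181, 0.0249 and 0 CPM frozen, a ratio of 156 with a 95% counting interval of 41.9 to 1314. Hist1h1e, a linker histone, was at 2.00, 9.24, 1.26 and 0.334 CPM fixed and 0, 0.249 and 0.272 CPM frozen (4.22 ± 1.36, adjusted p = 0.0257). This call was lost without frozen library 41, 43 or 44 (log2 difference 3.56, 4.56 and 4.68, adjusted p = 0.0754, 0.0764 and 0.065) and with the animal as a block (2.89, adjusted p = 0.11). Hist1h1c, another linker histone with the same 16-base motif, went the other way, with 3.68, 9.38, 4.54 and 9.19 CPM fixed and 19.1, 20.2 and 21.3 CPM frozen (-1.57 ± 0.32, adjusted p = 0.002, or adjusted p = 0.0714 in 1 model of all 6 groups). The motif was therefore found both in genes that were higher and in one that was lower. Of 10 tested histone variants with poly(A) tails, 5 were higher and 1 lower, at a median of 0.70. H2afv rose by 1.48 and H2afx by 1.67, while H3f3a, an H3.3 gene, fell by 1.47 on the log2 scale.

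Long non-coding RNAs held in the nucleus were mostly higher, although they are long. Malat1, a nuclear speckle RNA of 6983 nt, stood at 2206, 3426, 2123 and 3646 CPM fixed and 220.3, 215 and 246 CPM frozen. The lowest fixed value was several times the highest frozen one (3.65 ± 0.21, adjusted p = 3.99e-07). Kcnq1ot1, an imprinted antisense RNA annotated at 93092 nt, stood at 32.8, 57.2, 14.6 and 53.5 CPM fixed and 1.87, 1.09 and 2.33 CPM frozen (4.5 ± 0.47, adjusted p = 2.24e-05). Neat1, the scaffold of paraspeckles, had 464, 579, 391 and 611 CPM fixed and 145, 121 and 177 CPM frozen (1.8 ± 0.18, adjusted p = 1.54e-05). Kcnq1ot1 runs antisense within Kcnq1, and reads of both strands are counted together here. In this list, 5 of 7 tested RNAs were higher and 1 was lower. The lower one was Xist at -0.45 (adjusted p = 0.00711), and Tug1 at -0.43 did not pass.

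Over all tested genes with an annotated length, the guide RNAs among them, the difference ran with transcript length. Genes whose annotated transcript has at most 500 nt had a median log2 difference of 2.36, with 69.5% higher and 4.21% lower among 95 tested. The median was 1.51 for 650 genes above that and up to 1000 nt, 0.54 for 2661 genes up to 2000 nt and -0.02 for 5129 genes up to 4000 nt. It was -0.37 for 3380 genes up to 8000 nt and -0.47 for 598 genes over 8000 nt, where 7.86% were higher and 45.5% lower. The medians thus fell at each step from the shortest to the longest class, and control livers gave 2.33, 1.56, 0.54, -0.05, -0.48 and -0.62 for the same classes. In protein-coding genes alone, the medians were 2.04 for 44 genes of at most 500 nt, 1.5 for the next 580, then 0.53, -0.03 and -0.37, and -0.48 for 591 genes over 8000 nt. Genes called higher had a median length of 1786 nt, genes called lower one of 4092 nt, and all tested genes one of 2984 nt. In 23 of the 25 gene lists that had at least 3 members called each way, the members called higher had the shorter transcripts at the median, and the exceptions were the cytochrome P450 genes of xenobiotic metabolism and the stellate cell markers. GC content went with a smaller range, from a median of -0.15 in the lowest to 0.09 in the highest quintile of genes. Within terciles by GC content, the shortest tercile of genes had medians of 0.51, 0.66 and 0.65 and the longest tercile -0.37, -0.35 and -0.45. Genes of at most 1000 nt took 7.19% ± 0.611 of counts in fixed pieces (SD, n = 4) and 2.35% ± 0.0449 in frozen pieces (SD, n = 3). Genes over 4000 nt took 18.1% ± 0.505 and 27.9% ± 0.433 (exact two-sided permutation test, p = 0.0571 for both shares, 0.0648 when adjusted over 17 measures). The poly(A) signal AATAAA, searched on the transcript strand in the last 30 nt, was present in 6733 of 12119 tested protein-coding genes (55.6%). Median differences were 0.01 with and -0.04 without it. These lengths come from a later annotation than the counts. Length also goes with exon number and level. Median differences were 0.67 for genes of 1 exon and -0.36 for those of 11 or more. By level they were 0.38 in the lowest and -0.24 in the highest quintile. The separate parts of length, exon number and level were not tested.

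**Figure D2:**
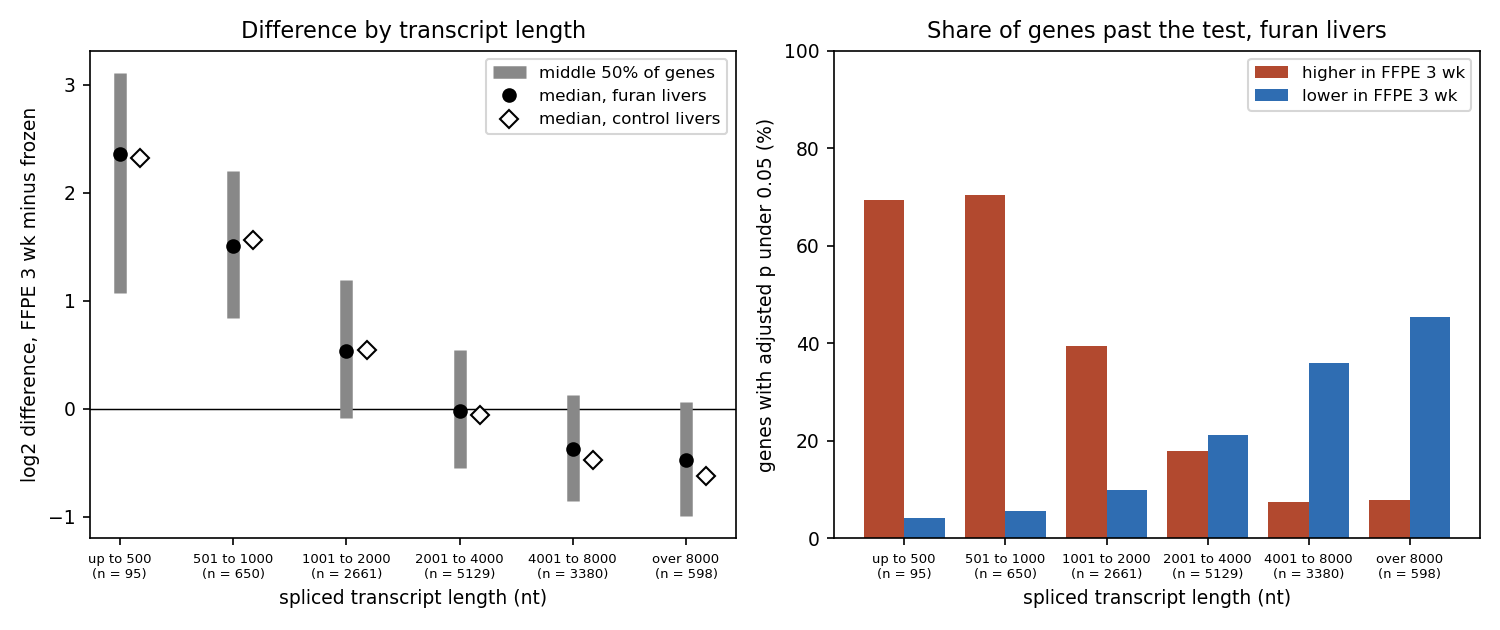
Median log2 difference between fixed and frozen pieces, with the middle 50% of genes, by class of transcript length in furan and control livers, and the percent of furan genes called higher or lower in each class. The furan medians run from 2.36 in the shortest to -0.47 in the longest class.

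The nuclear genes of the respiratory chain showed this split within single enzyme complexes. Of 76 tested subunits, 57 were higher and 12 lower, at a median of 1.4. Complex I, for example, joins large catalytic proteins to many small accessory ones. Cox8a, a small subunit of cytochrome c oxidase, stood at 435, 382, 417 and 377 CPM fixed and 47.8, 38.8 and 42.9 CPM frozen (3.22 ± 0.12, adjusted p = 4.75e-08). The accessory subunit of complex I, Ndufa3, stood at 104, 90.3, 113 and 107 CPM fixed and 12.5, 13.2 and 13.7 CPM frozen (2.97 ± 0.13, adjusted p = 1.1e-07). Uqcrh, the hinge protein of complex III, stood at 278, 308, 252 and 249 CPM fixed and 47.6, 48.9 and 49.9 CPM frozen (2.48 ± 0.12, adjusted p = 1.38e-07). In these small subunits every fixed library exceeded every frozen one by several-fold. Atp5b, the catalytic beta subunit of ATP synthase, went the other way, with 789, 752, 799 and 618 CPM fixed and 1603, 1537 and 1511 CPM frozen (-1.07 ± 0.10, adjusted p = 1.25e-05). Other large subunits, named after their values were seen, were lower as well: Ndufs1, the largest protein of complex I, stood at -1.5, the complex III core proteins Uqcrc1 and Uqcrc2 at -0.81 and -0.84, and Atp5a1 at -0.71 on the log2 scale. Among the 42 subunits with transcripts of at most 1000 nt, 39 were higher and 0 lower, at a median of 1.86. Among the 34 longer ones, 18 were higher and 12 lower, at a median of 0.48. The summed share of the list was 0.783% ± 0.0140 (SD, n = 3) in frozen and 1.18% ± 0.113 of counts in fixed pieces (SD, n = 4), without overlap of the libraries.

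Mitochondrial ribosomal proteins followed the same order. Of 75 tested, 50 were higher and 5 lower, at a median of 0.92. Mrpl52 stood at 75.4, 72.7, 105 and 82.8 CPM fixed and 9.21, 9.63 and 10.2 CPM frozen (3.12 ± 0.17, adjusted p = 2.38e-07). The 23 members with transcripts of at most 1000 nt had 21 higher and 0 lower at a median of 1.82, and the 52 longer ones 29 higher and 5 lower at 0.63. Cytosolic ribosomal proteins were less uniform: 36 of 74 were higher and 16 lower, at a median of 0.80, the lower share near the 22.9% of all genes. Rps20, of the small subunit, stood at 131, 132, 129 and 127 CPM fixed and 14.8, 14 and 16.3 CPM frozen (3.11 ± 0.12, adjusted p = 4.75e-08). Rpl39, one of the smallest ribosomal proteins, stood at 55.0, 39.8, 46.1 and 44.9 CPM fixed and 1.47, 2.24 and 2.18 CPM frozen (4.57 ± 0.23, adjusted p = 1.98e-07). In contrast, Rpl35 stood at 0, 0, 0 and 0.501 CPM fixed and 7.2, 7.27 and 7.39 CPM frozen (-5.38 ± 0.81, adjusted p = 0.000279). Its only counts in fixed pieces, 6, were in library 44, without which the fitted difference was -10.50 (adjusted p = 0.000185). Most ribosomal protein genes have processed pseudogenes, and reads that match a copy may be lost or moved in counting. The members called lower shared a median of 67.6% of their sequence with other transcripts (12 of 16 over 50%), those called higher 31.3% (9 of 36) and those that did not pass 61.2% (13 of 22). Single values of ribosomal protein genes are uncertain for that reason.

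Translation factors leaned the other way. Of 57 tested, 14 were higher and 21 lower, at a median of -0.15, against 22.4% and 22.9% of all genes. The higher share was thus near that of all genes. Eif4g1, the scaffold of the cap-binding complex, stood at 234, 250.4, 242 and 289 CPM fixed and 935, 982 and 916 CPM frozen (-1.90 ± 0.10, adjusted p = 2.34e-07). Eef2, the elongation factor that moves the ribosome, stood at 644, 737, 664 and 582 CPM fixed and 2486, 2199.6 and 2162 CPM frozen (-1.8 ± 0.10, adjusted p = 3.53e-07). Eif3a and Eif3c, large subunits of initiation factor 3, fell by 2.15 and 2.23 on the log2 scale. The short messenger of Eif4ebp3, a repressor of cap-dependent initiation, was higher by 2.47. Splicing factors were divided, with 23 of 63 higher and 20 lower and a median of -0.02, which became 0.10 under upper-quartile scaling. Prpf8, the core of the spliceosome, fell by 1.56 and Prpf4b, its kinase, by 1.69, while Hnrnpl rose by 1.30. Proteasome subunits were divided too (14 of 38 higher, 11 lower, median -0.09, or 0.03 under upper-quartile scaling). Psmb2, of the 20S core, rose by 2.02, and Psmd2, a large subunit of the 19S cap, fell by 1.5. Of 269 tested zinc finger genes of the Zfp series, 26 were higher and 21 lower, at a median of 0.04, both shares below those of all genes. Without fixed library 42, 28 of 287 were higher and 33 lower. With the animal as a block, on all libraries, the median was -0.06.

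Plasma proteins of the hepatocyte differed widely from gene to gene. Alb, albumin, took the most counts of any messenger in frozen livers and stood at 68637, 65775, 70376 and 63122 CPM fixed and 131952, 121402 and 122697 CPM frozen. It was lower in each fixed library (-0.90 ± 0.07, adjusted p = 3.34e-06). Of 28 secreted proteins, 7 were higher and 15 lower, at a median of -0.36, against 22.4% and 22.9% of all genes. Pzp and Mug1, large protease inhibitors of the alpha-2-macroglobulin family, fell by 1.5 and 2.04, and Trf, the iron carrier transferrin, by 1.01 on the log2 scale. The thyroid hormone carrier Ttr, a short messenger, stood at 8168, 8319, 10697 and 7678 CPM fixed and 2365, 2413 and 2419 CPM frozen (1.86 ± 0.12, adjusted p = 7.08e-07). Among apolipoproteins, 7 of 14 were higher and 5 lower. Apoc1, a small protein of lipoprotein surfaces, stood at 4335, 4039.7, 5214 and 4025 CPM fixed and 564, 573 and 649.7 CPM frozen (2.89 ± 0.12, adjusted p = 7.32e-08). Apoc2, the cofactor of lipoprotein lipase, and Apoc3, its inhibitor, rose by 2.64 and 2.51, and Apoa2 of high-density lipoproteins by 1.63. Apob, whose very long messenger encodes the backbone of low-density lipoproteins, stood at 3571, 3965, 2940.2 and 3845 CPM fixed and 7556, 8298 and 7848 CPM frozen (-1.14 ± 0.11, adjusted p = 9.49e-06). All 5 apolipoproteins of at most 1000 nt were higher (median 2.51), whereas 2 of the 9 longer ones were higher and 5 lower (median -0.32).

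**Figure D3:**
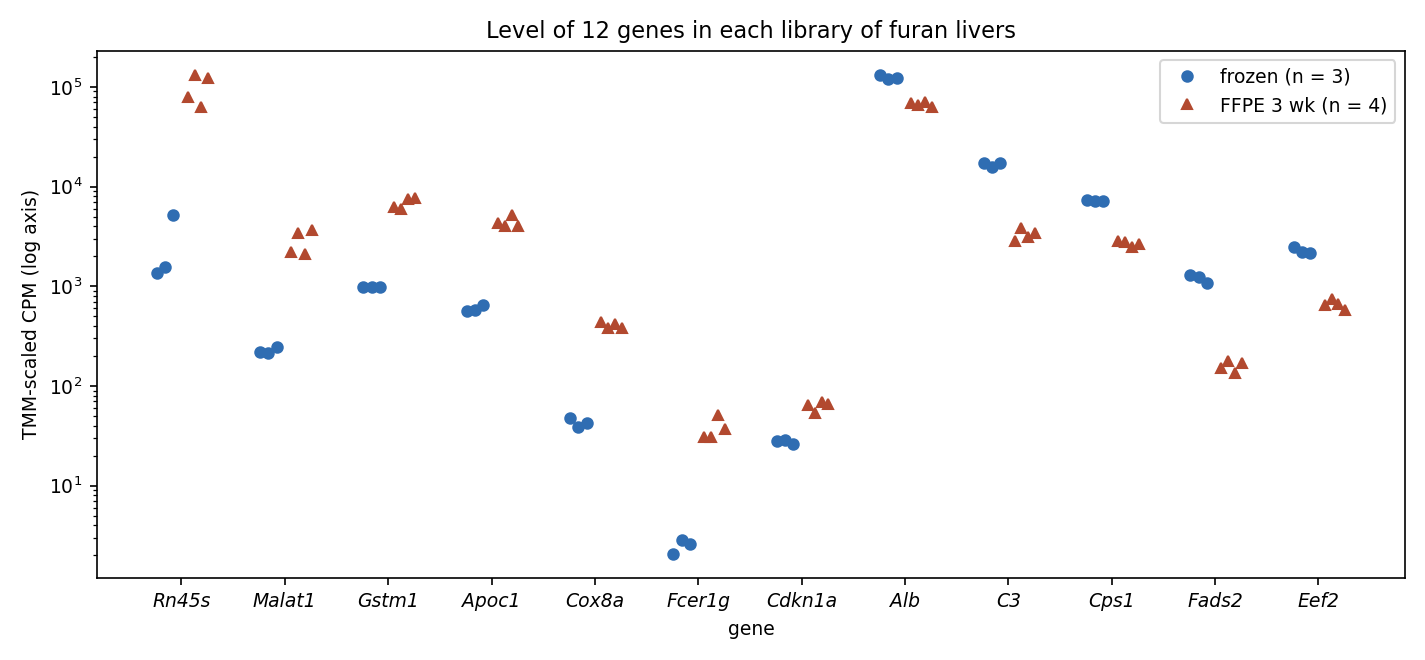
TMM-scaled CPM on a log axis for 12 genes, with frozen pieces as circles and pieces fixed for 3 weeks as triangles, 1 point per animal. Rn45s, Malat1, Gstm1, Apoc1, Cox8a, Fcer1g and Cdkn1a lie higher in every fixed piece, and Alb, C3, Cps1, Fads2 and Eef2 lie lower in every fixed piece.

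Complement and coagulation proteins, all 37 with transcripts over 1000 nt, were mostly lower. Of these, 24 were lower and 5 higher, at a median of -0.64. C3, the central complement protein, stood at 2863, 3887, 3092 and 3431 CPM fixed and 17141, 15619 and 17143 CPM frozen. All fixed libraries lay well below all frozen ones (-2.33 ± 0.11, adjusted p = 1.38e-07). C4b, its partner in the classical pathway, fell by 2.12 and Masp1, the lectin pathway protease, by 2.29 on the log2 scale. Of the clotting cascade, F5 fell by 1.59 and F2, prothrombin, by 1.19.

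Detoxification genes split by family. Furan is oxidised in hepatocytes by Cyp2e1, a cytochrome P450, and its reactive product is bound by glutathione. Of 44 tested P450 genes, 22 were lower and 6 higher, at a median of -0.29. Cyp2e1 stood at 3402, 3753, 3154 and 3077 CPM fixed and 5783, 5285 and 5504 CPM frozen (-0.72 ± 0.09, adjusted p = 8.44e-05). Cyp3a25 fell by 0.97 and Cyp2c68 by 1.23, while Cyp2c29 and Cyp2c38 of the same clustered family rose by 1.06 and 1.10. Glutathione S-transferases, which join glutathione to such products, went the other way: 16 of 20 were higher and 1 was lower, at a median of 0.77. Gstm1 stood at 6229.9, 5942, 7531 and 7635 CPM fixed and 993, 974 and 986 CPM frozen (2.80 ± 0.12, adjusted p = 6.59e-08). Gstt1 rose by 2.18, Gsto1 by 1.73 and Gstm6 by 1.96. Gstp1, named after its values were seen, stood at -1.35 and was lower. Both families hold clustered copies of similar sequence, where counting can move reads from one gene to another. This bears most on Cyp3a41a, which shares 98.3% of its sequence with other genes. It had 58.9, 51.1 and 80.8 CPM in frozen pieces and 0 counts in all 4 fixed pieces, at least 696-fold lower against a floor of 3 counts over the group. The major urinary proteins are near-identical copies too. Of 14 tested, 9 were higher and 2 lower at a median of 1.88, with Mup7 at 0, 0, 0.252 and 0.167 CPM fixed and 4.41, 17.5 and 4.78 CPM frozen and Mup4 at 3.57, 8.16, 10.3 and 4.09 CPM fixed and 0.0181, 0.0747 and 0 CPM frozen.

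Enzymes of intermediary metabolism were mostly lower after fixation. No member of the urea cycle and amino acid list was higher, and 17 of 27 were lower, at a median of -0.40. Cps1, the first enzyme of the urea cycle, stood at 2830.0, 2752, 2475 and 2659 CPM fixed and 7301, 7205 and 7104 CPM frozen. Its fixed and frozen values did not overlap (-1.43 ± 0.08, adjusted p = 3.23e-07). Asl and Otc, later enzymes of the cycle, fell by 1.47 and 1.06, and Tdo2, which opens the breakdown of tryptophan, by 1.42. Of 20 lipogenic genes, 9 were lower and 3 higher (median -0.49). Fads2, a fatty acid desaturase, stood at 151, 176, 136 and 171 CPM fixed and 1284, 1248 and 1078 CPM frozen (-2.92 ± 0.12, adjusted p = 6.07e-08). Gpam, which begins triglyceride synthesis, fell by 2.50 and Fasn, fatty acid synthase, by 1.61. The sterol list had 13 of 24 lower and 5 higher (median -0.56), the latter share near the 22.4% of all genes. Idi1, an isomerase of the pathway, stood at 2.52, 0.680, 3.03 and 1.5 CPM fixed and 26.7, 31.9 and 21.0 CPM frozen (-3.84 ± 0.37, adjusted p = 1.17e-05), and Srebf2, the main transcription factor of the pathway, and Stard4, a sterol carrier, fell by 1.45 and 2.09. Ebp, a sterol isomerase of the same pathway, rose by 1.01.

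In fatty acid oxidation, 14 of 32 genes were lower and 5 higher, at a median of -0.33 (16 lower and 8 higher with the animal as a block). Etfdh, which passes electrons from fatty acid oxidation to the respiratory chain, fell by 1.52 and Cpt1a, the gate of fatty acid entry into mitochondria, by 1.18. The short messenger of Fabp1, the fatty acid binding protein of liver, rose by 1.00. Of 21 bile acid genes, 9 were lower and 3 higher (median -0.39), or 12 lower and 5 higher with the block. Akr1d1, which reduces bile acid precursors, fell by 1.55, Abcc2 by 1.44 and Abcb11, the bile salt export pump, by 1.00. Hepatocyte transcription factors had 11 of 27 lower and 6 higher (median -0.19), the latter share near the 22.4% of all genes. Nr3c1, the glucocorticoid receptor, fell by 1.05 and Prox1 by 1.23. The intronless Cebpb rose, with 224, 239, 279 and 229.6 CPM fixed and 42.4, 34.5 and 29.2 CPM frozen (2.78 ± 0.15, adjusted p = 2.75e-07). Of 19 clock genes, 7 were lower and 0 higher (median -0.31), led by Dbp, a clock output factor, at -0.91.

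Genes of stress responses were compared between pieces of animals that had all received furan. Over all tested genes, 22.4% were higher and 22.9% lower. The lower shares of the NRF2 and endoplasmic reticulum lists below are near the latter. Of 26 p53 targets, 13 were higher and 4 lower, at a median of 0.57. Cdkn1a, the cell cycle inhibitor p21, stood at 64.7, 53.4, 69.6 and 66.4 CPM fixed and 28.1, 29 and 26.5 CPM frozen (1.19 ± 0.14, adjusted p = 4.2e-05). Bax, a pore former of cell death, rose by 1.18 and Phlda3, an inhibitor of Akt, by 1.5. Sesn2 fell by 1.47. Of 38 antioxidant genes under the factor NRF2, 16 were higher and 9 lower (median 0.48). Prdx1, a peroxide-reducing enzyme, rose by 1.64, Fth1, the heavy chain of ferritin, by 1.4, and the biliary export pump Abcc2 fell by 1.44. Both lists were chosen knowing that furan raises them in these data, so their direction here is a description. Of 23 immediate early genes, 9 were higher and 1 lower (median 0.64). Klf2, a short-lived factor of endothelium, rose by 2.63 and Ier2 by 1.13. Heat shock proteins and metallothioneins had 9 of 19 lower and 5 higher. The cytosolic chaperone Hsp90ab1 fell by 1.31, while the short metal-binding Mt1 stood at 347, 289, 246 and 119 CPM fixed and 43.5, 25.6 and 17.6 CPM frozen (3.11 ± 0.39, adjusted p = 7.38e-05). In the list of endoplasmic reticulum stress and the amino acid response, 8 of 21 were higher and 5 lower. Atf4, the main factor of the amino acid response, rose by 1.79, and the protein folding enzymes Pdia3 and Pdia4 fell by 1.05 and 0.98 on the log2 scale.

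**Figure D4:**
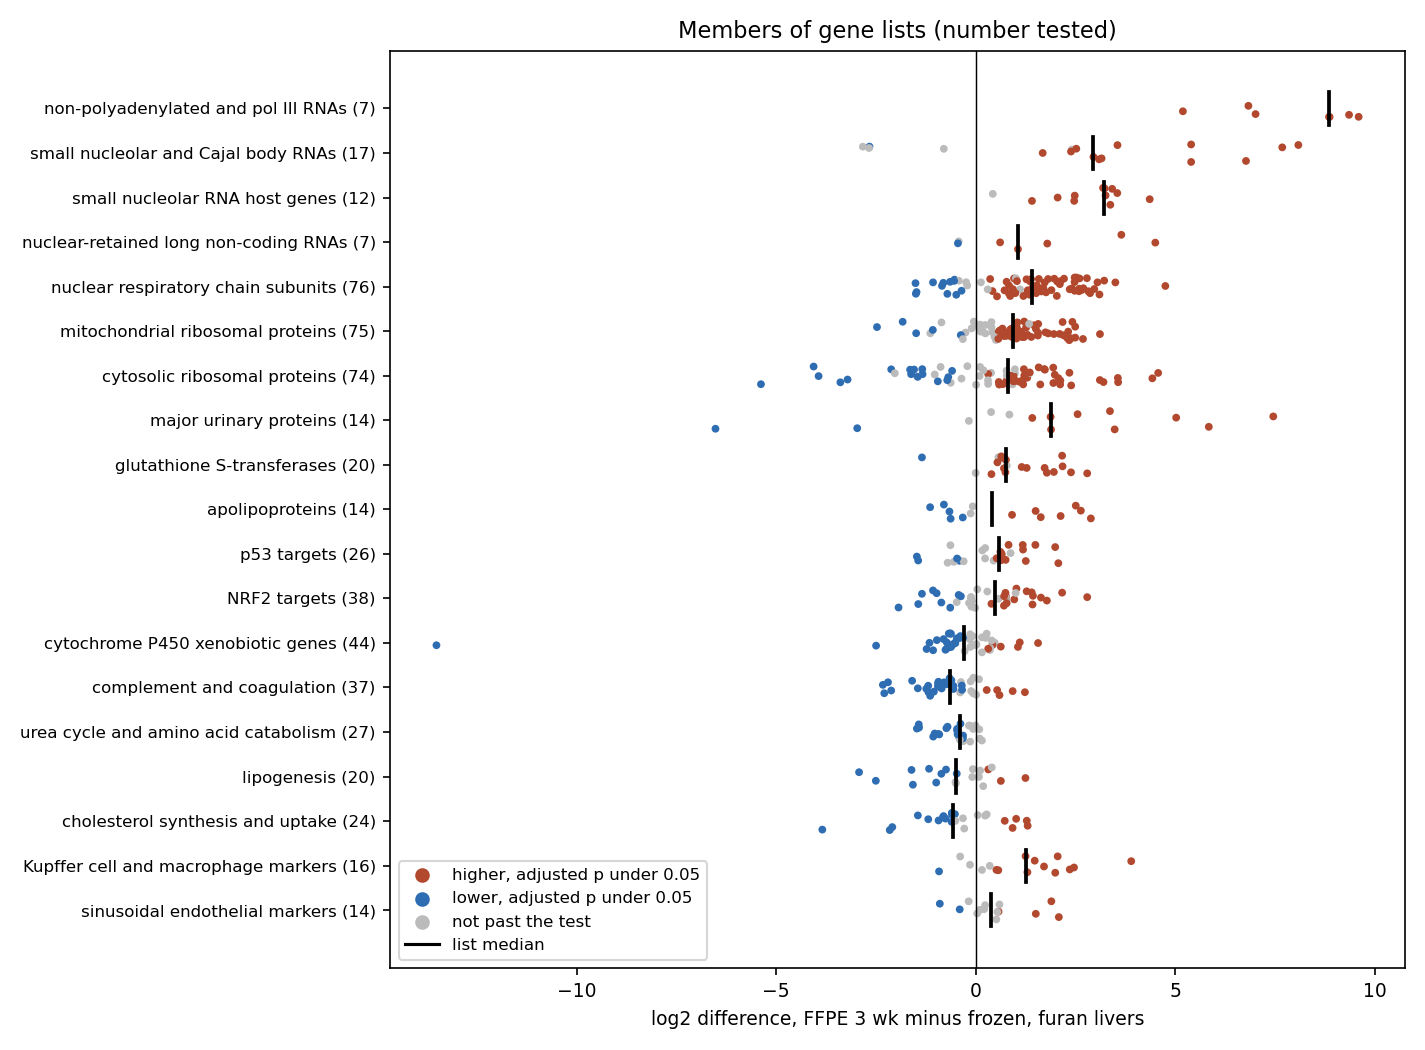
Log2 difference between fixed and frozen furan pieces for each tested member of 19 gene lists (points) with the median of the list (bar). Guide RNA, respiratory chain, mitochondrial ribosomal and glutathione S-transferase lists have medians above 0.5, and complement, cholesterol, lipogenesis and urea cycle lists have medians below 0.

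Transcripts of the other cell types of the liver were higher, mixed or lower in sum. In whole pieces of liver, more cells of a type, more RNA per cell and the difference that runs with transcript length cannot be told apart. Tested markers of Kupffer cells and macrophages had a median length of 1394 nt, against 2984 nt for all tested genes. Those called higher had a median of 1230 nt, and the 1 called lower had 4404 nt. The part of length in the marker differences was not tested. Of 16 markers of Kupffer cells and macrophages, 11 were higher and 1 was lower, at a median of 1.27, or 10 higher and 2 lower without fixed library 42. Their summed level was 710.0, 952, 990.0 and 818 CPM in fixed and 388, 487 and 446 CPM in frozen pieces. Fcer1g, a signalling chain of Fc receptors with a short messenger, stood at 30.6, 30.7, 51.4 and 36.8 CPM fixed and 2.07, 2.84 and 2.57 CPM frozen (3.90 ± 0.26, adjusted p = 8.62e-07). The complement C1q chains C1qa, C1qb and C1qc rose by 1.71, 1.99 and 2.46 on the log2 scale. Csf1r, the growth factor receptor of macrophages, and Emr1, which encodes the F4/80 antigen, were at 0.35 and -0.39 and did not pass. Among markers of sinusoidal endothelium, Clec4g and Dnase1l3 rose by 1.90 and 2.08, while Kdr, the receptor of vascular endothelial growth factor, fell by 0.90 (4 of 14 higher and 2 lower, against 22.4% and 22.9% of all genes, or 5 higher and 1 lower without fixed library 42). The summed T and NK cell markers stood at 23.4, 22.7, 19.2 and 17 CPM fixed and 5.15, 6.47 and 5.84 CPM frozen. Ccl5, a chemokine of T cells and other leukocytes, had the largest difference among the called ones, at 3.68, 4.89, 4.03 and 5.68 CPM fixed and 0.308, 0.274 and 0.151 CPM frozen (4.18 ± 0.62, adjusted p = 0.000256). Chemokines had 10 of 16 higher and 0 lower (median 1.01), matrix genes 13 of 26 higher and 4 lower (median 0.65). The summed level of the matrix genes went the other way, at 2085, 2540, 2117.5 and 2310 CPM fixed and 5523, 4882 and 4763 CPM frozen. Sparc, a collagen-binding protein, rose by 1.55, and Fn1, the very long fibronectin messenger, fell by 1.69. Of 8 hepatocyte markers, 2 were higher and 5 lower (median -0.62). Asgr1, the asialoglycoprotein receptor, rose by 1.20. Of 27 interferon-stimulated genes, 7 were higher and 2 lower (median 0.41), where the higher share is near the 22.4% of all genes. Ifit1, an antiviral RNA-binding protein, rose by 1.8. Of 34 cell cycle genes, 2 were higher and 4 lower (median -0.25), both shares below those of all genes. Summed erythroid markers overlapped, at 16.2, 21.7, 28.2 and 15.3 CPM fixed and 26.0, 28.1 and 25.6 CPM frozen. Stellate cell markers summed lower in every fixed piece, at 451, 565, 482 and 543 CPM fixed and 630, 641 and 642 CPM frozen. Of these 13 genes, 4 were higher and 3 lower, against 22.4% and 22.9% of all genes. Mesothelial and gallbladder markers also summed lower, at 61.5, 54.1, 64.5 and 38.5 CPM fixed and 109, 120 and 132 CPM frozen. Sums of endothelial, cholangiocyte and B and plasma cell markers were higher in every fixed piece. Olfactory and vomeronasal receptors, genes without a known role in liver, took 0.000889% of counts in fixed and 0.000898% in frozen pieces (exact two-sided permutation test, p = 1). The part of cell makeup in the differences of other genes was not tested.

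Muscle genes rested on 1 library. Ttn, the giant spring protein of muscle, stood at 1.05, 271, 2.27 and 3.17 CPM fixed and 0.453, 0.771 and 0.939 CPM frozen, and Mylpf, a myosin light chain of fast muscle, at 0.945, 47.3, 0.504 and 1.92 CPM fixed and 0.254, 0.224 and 0.0908 CPM frozen. Both were called (6.63 ± 1.86, adjusted p = 0.0131 and 5.98 ± 1.54, adjusted p = 0.00819). Without fixed library 42, Ttn stood at 1.58 (adjusted p = 0.0782) and no longer passed, nor did it with robust dispersions on all libraries (adjusted p = 0.0822), and Mylpf stood at 2.58 (adjusted p = 0.0258). Muscle transcripts were also found in control pieces fixed for 3 weeks, at 763 CPM in animal 03 and 240.0 CPM in animal 06, but at 6.00 and 3.24 CPM in animals 02 and 04. The furan piece of animal 44 fixed for 18 h held 55.1 CPM, and the other 18-h furan pieces 4.27 to 9.90 CPM. The part of muscle transcripts in other results was not tested, beyond the counts of lists given without library 42.

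Several genes used as references in expression work differed between fixed and frozen pieces. Of 14, 5 were higher and 4 lower, and their median went from 0.20 to -0.05 with the animal as a block. Actb, cytoskeletal actin, stood at 1730.2, 1844, 2121 and 1908 CPM fixed and 368, 437 and 469.5 CPM frozen (2.16 ± 0.12, adjusted p = 2.49e-07), and B2m, the light chain of MHC class I, at 2143, 2126, 2269 and 2125 CPM fixed and 669.7, 673 and 681 CPM frozen (1.68 ± 0.08, adjusted p = 1.85e-07). Ywhaz, a 14-3-3 protein, rose by 2.61 and Hprt, a purine salvage enzyme, by 0.89. Sdha, a subunit of complex II, and Rplp0 fell by 0.64 and 0.59. Gapdh at -1.09 (adjusted p = 0.154), Tbp at 0.21 (adjusted p = 0.495) and Pgk1 at 0.48 (adjusted p = 0.303) did not pass, which does not show that they are equal. Without fixed library 43, Pgk1 stood at -0.03. Gapdh had 0.630, 1.90, 1.76 and 1.59 CPM fixed and 3.19, 1.92 and 4.15 CPM frozen, and Ppia 1.16, 1.36, 2.77 and 0.0835 CPM fixed and 1.05, 1.05 and 1.21 CPM frozen, and both have many pseudogene copies.

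The largest single differences were often of genes with close copies. Of the 12 largest on the lower side, 10 share more than 50% of their sequence with other transcripts, and 4 of the 12 largest on the higher side do. Besides Cyp3a41a, Mup7 and Rpl35, the lower group holds Ugt1a6a and Ugt1a6b, glucuronosyltransferases that share most of their exons, and the pseudogene Gm1821. Spata5l1, an ATPase gene with 1.95% shared sequence, stood at 0.525, 0.816, 0.504 and 0 CPM fixed and 13.5, 10.6 and 11.2 CPM frozen (-4.79 ± 0.62, adjusted p = 9.47e-05). On the higher side, Oaz1, the antizyme that limits polyamines and is translated through a frameshift, had 5.67, 2.85, 7.31 and 4.18 CPM fixed and 0, 0 and 0 CPM frozen, at least 214-fold higher. Oaz1 shares 51.3% of its sequence with other transcripts. Of 11883 genes with at least 1 CPM on average in frozen pieces, 10 had 0 counts in all 4 fixed pieces (16 after thinning all libraries to the shallowest total). Of 12558 such genes in fixed pieces, 25 had 0 counts in all 3 frozen pieces (110 after the same thinning). Several of the 25 are muscle genes with counts in fixed library 42 only, such as Myot (103 counts), Trdn (113), Myl2 (70) and Smpx (44).

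Control livers, which share no library with the furan livers, were compared in the same way. There, 3188 of 12145 tested genes differed between pieces fixed for 3 weeks and frozen pieces (26.2%), with 1605 higher (13.2%) and 1583 lower (13%). Without frozen control library 02, 04 or 06, the count was 1978, 2004 or 1988. Across 12006 genes tested in both, the log2 differences of furan and control livers had a Pearson r of 0.79 and a Spearman rho of 0.83, where genes are not independent replicates and share their length and level. Of 5555 genes called in furan livers and tested in control livers, 5426 (97.7%) had the same sign there, 2891 (52.0%) were called with that sign and 0 were called with the opposite one. Rn45s differed by 5.33 in control livers, Malat1 by 3.38, Gstm1 by 2.82, Cox8a by 3.33, Apoc1 by 2.98, C3 by -2.35 and Fads2 by -2.99. The furan values of these 7 genes were 5.19, 3.65, 2.80, 3.22, 2.89, -2.33 and -2.92. The spread among fixed control animals was larger, with a coefficient of variation of 78.1%. A test of the difference between the furan and control effects called 0 of 13156 genes (0%) with edgeR's quasi-likelihood test, where 590 had an unadjusted p under 0.05, and 37 genes with DESeq2. Without fixed control library 02, edgeR called 5 genes. With the spread of the fixed control animals, so few calls do not show that the furan and control effects are equal.

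**Figure D5:**
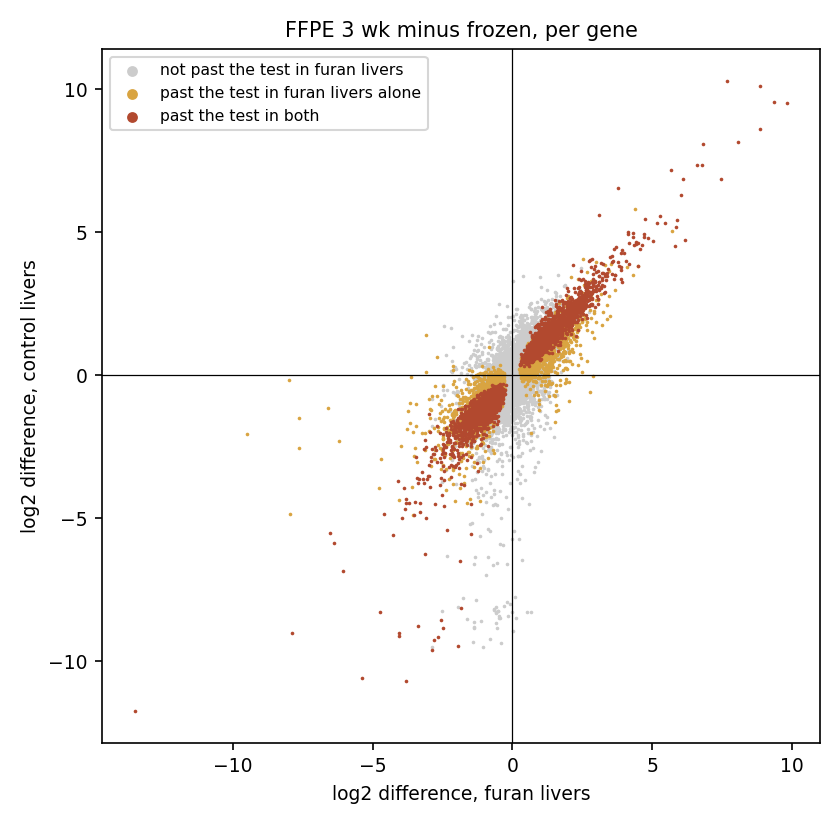
Log2 difference between pieces fixed for 3 weeks and frozen pieces in furan livers (x axis) and control livers (y axis). Each point is 1 of 12006 genes tested in both, coloured by whether it passed the test in furan livers and in both, and most called genes lie in the lower left and upper right parts of the plot, with r of 0.79 over all points.

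Pieces of the same furan livers fixed for 18 h served as a second fixed state. From these, 1 section of 10 micrometres was extracted per piece, against 2 per 3-week piece. Their libraries held 16269854 to 22494012 counts, against 3895208 to 11780691 at 3 weeks. The effects of fixation time and amount of tissue cannot be told apart here, and the part of depth was not tested. The comparisons share the 3-week libraries, so each is given by its own values. Between 3 weeks and 18 h, 4183 of 12671 genes differed (33%), 1971 higher (15.6%) and 2212 lower (17.5%) after 3 weeks, and 1159 of them by at least 2-fold. Rn45s took 7.76 to 16.5% of counts at 18 h and did not differ by the test (-0.41 ± 0.26, adjusted p = 0.259). Genes of at most 1000 nt took 9.27 to 10.6% of counts at 18 h, above the 6.71 to 8.04% at 3 weeks, and genes over 4000 nt took 12.9 to 13.7%, below the 17.5 to 18.7% at 3 weeks. On both measures the pieces fixed for 3 weeks stood between those fixed for 18 h and the frozen ones. Apoc1 was lower at 3 weeks than at 18 h (-1.25 ± 0.10, adjusted p = 2.04e-06), and Cps1 was 0.29 higher (adjusted p = 0.0203). Single genes were divided: of 2549 genes called against both frozen and 18 h, 1335 (52.4%) stood between them at 3 weeks and 1214 (47.6%) lay outside. A shift in the shared 3-week libraries moves a gene the same way in both comparisons, and its part in this split was not tested. Gstm1 was higher at 3 weeks than at 18 h (0.90 ± 0.10, adjusted p = 2.2e-05) and higher than in frozen pieces. Alb was lower than in both (-0.72 ± 0.08, adjusted p = 2.53e-05 against 18 h), as were C3 (-0.99 ± 0.11, adjusted p = 1.46e-05) and Eef2 (-0.67 ± 0.10, adjusted p = 0.000145). Among the largest changes, Sec62, a translocation protein of the endoplasmic reticulum, was lower (-2.55 ± 0.15, adjusted p = 8.45e-07).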

How the data were processed

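The series measured poly(A) RNA-seq counts in mouse livers. Per the submitters' processing notes, the tools were CASAVA 1.8.2, STAR 2.3.0 and featureCounts 1.4.4 with build mm9, and their settings are not given in the sources used here. The deposited values are whole-number counts per gene symbol (24015 genes), not normalized. Columns were tied to labelled samples through the kind of piece and the animal (22 columns), and 2 columns that matched no label were not used. Members, gene lists and the rule for named genes were chosen with earlier results of these data known.

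Counts were filtered with filterByExpr, scaled by TMM and fitted with edgeR 4.0.16 (quasi-likelihood F test, Benjamini-Hochberg over all tested genes, threshold 0.05) in R 4.3.3, on the furan 3-week and frozen libraries only. No replicate block was used in the values of the report. The SE is the log2 difference over the square root of F and is approximate where counts are few. Control livers, the furan pieces fixed for 18 h and the interaction of preservation and treatment were fitted the same way. Shares per library were compared by exact two-sided permutation tests. Bounds use a floor of 3 counts over a group. A ratio that rests on 1 to 3 counts has a 95% exact binomial interval. Both cover counting error only, since reads carry no molecular identifiers. Length, GC content, shared 50-nt words and exon overlap came from GENCODE M21 (GRCm38) by symbol or synonym for 12513 of 12599 tested genes (99.3%). No coordinates are given, since the counts were made on another build. Reads were counted without strand, so overlapping and antisense genes cannot be told apart.

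Named genes are the 12 largest differences each way (groups without overlap, higher mean of 5 CPM or more), the 10 genes with most counts in frozen livers, the 6 largest each way against 18 h, up to 6 members with the smallest p per list, 10 fixed genes and 14 reference genes. Pairing comes from the labels, where pieces of 1 liver carry 1 number. After removal of group means, the same-numbered fixed and frozen pieces had r of 0.208, 0.0909 and 0.132 across genes, and pieces of different furan animals -0.156 to 0.0272. No 2 libraries of a group were duplicates (lowest chi-square per degree of freedom 15.2). On simulated data of this comparison (12442 genes), 39.8% of 98 genes changed 2-fold and 77.6% of 98 genes changed 4-fold were recovered. Of 117 calls, 1.71% were false. The changed genes there were far fewer than the 5703 called in furan livers. Recovery and false calls with so many changed genes were not tested. Alternatives were DESeq2 1.42.0, other scalings, filters and dispersions, a fold threshold, 1 model of all groups, thinning, the animal as a block, shares without Rn45s and each library left out. Lists without fixed library 42 and length classes of protein-coding genes were added after seeing the data. Some results are not reported here.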

Additional observations from a re-analysis of the deposited data

Results flagged for a closer look

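In groups of 4 libraries, 1 library lay far from the other 3 in 7 of the 65 measures and genes examined (the gap to the nearest library, over the range, exceeded Dixon's 95% critical value, which chance does in about 1 in 20 groups). Fixed library 42 stood apart with skeletal muscle markers at 0.139% of its counts, with Ttn at 271 CPM and with Mylpf at 47.3 CPM. Fixed library 44 was the only fixed library with counts of Rpl35 (0.501 CPM), and fixed library 41 had the most Rpl19 (1.47 CPM), both ribosomal protein genes with close copies. Fixed library 43, the shallowest, had the highest B2m (2269 CPM), and the highest Pgk1 (43.6 CPM).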

How the results depend on the processing

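The number of genes called between fixed and frozen furan livers was 5703 and stayed between 5023 and 6298 under DESeq2, other scalings, other filters, robust dispersions, 1 model of all 6 groups and thinning to the shallowest total. A test against a fold of 1.5 called 2977 genes (1631 higher, 1346 lower). With the animal as a replicate block, 5810 genes were called (2669 higher, 3141 lower), and the same block called 2816 genes in control livers, 4572 between 3 weeks and 18 h, and 0 in the interaction. Leaving out 1 library at a time gave 4263 to 6182 calls in furan livers. In control livers it gave 1978 to 4398 calls (997 to 2042 higher, 969 to 2356 lower), and in the interaction 0 to 5, all 5 higher, with the 5 reached without fixed control library 02. DESeq2 called 37 genes in the interaction (35 higher, 2 lower). The difference in total counts ranged from -41290800 to -28817400 over these omissions.

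When Rn45s was left out of the totals, the differences in share, in percentage points, were -5.99 for the 10 genes with most counts (reversed from 1.91), 0.00844 for histones, 0.241 for ribosomal proteins, 0.529 for respiratory chain subunits, -4.74 for Alb, -4.96 for secreted proteins, -0.101 for P450 genes, 5.63 for genes of at most 1000 nt and -7.80 for those over 4000 nt. Under the replicate block, the median log2 difference of genes was 0.13 in the length class from 1707 nt, -0.15 from 2540 nt and -0.32 from 3487 nt. By GC content it was -0.089 from 44.5%, -0.0012 from 48.4% and -0.028 from 52.1% (both reversed) and 0.014 from 55.8%, and 0.092 from 48.4% after thinning. The medians of 6 lists changed sign: those of splicing factors (0.10) and proteasome subunits (0.03) under upper-quartile scaling, the former also under total-count scaling (0.03), and under the block those of zinc finger genes (-0.06), reference genes (-0.05), stellate cell markers (-0.10) and mesothelial and gallbladder markers (-0.95). After thinning, 16 genes with at least 1 CPM in frozen pieces were at 0 in all fixed ones, and 110 with at least 1 CPM in fixed pieces were at 0 in all frozen ones. The cause was not tested in any of these cases.

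Over the counts, shares and medians, 299 alternative values stayed within the replicate spread or 1.5 times the count reported, 34 moved and 3 reversed. Among the 299, the difference in olfactory and vomeronasal receptor share, -9.14e-06 percentage points, changed sign in 4 cases (1.31e-05 to 9.89e-05). None of the 281 named genes that were called changed sign under the alternatives run. Of the 34 that were not called, 14 did, Pgk1 and Ppia among them. With the block, the calls of Hist1h1e, Olfr1372-ps1, Kif11, Stab1, Gpr182 and Des were lost and those of Lrrc47 and Scd1 gained, and no other named call changed. Depth limits genes of few counts most, since the shallowest fixed library holds 3895208 counts.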
